A study of Homo sapiens with 6 samples.

Results

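BRD9 and SMARCD1 encode subunits of the BAF complexes, and 20 guides against them, 10 for each gene, were followed through a pooled CRISPR screen of a synovial sarcoma cell line. These were all guides that the count table assigns to either gene, of 3653 guides in the library. All 20 were kept by the filter on low counts, which asked for a day 0 mean of 30 counts or more, as were 3607 guides in all. The cells were HS-SY-II Cas9, a human synovial sarcoma line that carries the SS18::SSX1 fusion and expresses Cas9, transduced with guides by lentivirus and selected with puromycin, and this holds for the cells of every group. The groups were day 0 cells, frozen after selection as the reference (2 libraries), cells kept in culture for 14 days (2 libraries), and tumours from cells placed under the skin of athymic nude mice and taken at a volume of 1 cm3 (2 libraries). Nude mice lack mature T cells, and the sources used here do not give the time that the tumours took. By the protocol, cells of each replicate were placed in 4 mice. How the mice of a replicate relate to its library is not settled by these sources. Below, a tumour therefore means a library of the tumour group, however many mice it holds.

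BAF complexes, also called SWI/SNF, use ATP to move and evict nucleosomes, and they come in several assemblies that share a core. SMARCD1 is a core subunit that helps to hold the assembly together, while BRD9 is a bromodomain protein, a reader of acetylated lysines, that belongs to the non-canonical assembly. SS18, the gene fused to an SSX gene in synovial sarcoma, encodes a subunit of the same family of complexes, and the SSX portion of the fusion takes the complex to chromatin marked by Polycomb. In a screen of this kind a guide directs Cas9 to cut its gene, and cells that lose a gene they depend on leave fewer descendants, so that its guides make up less of the pool.

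In the GENCODE annotation of hg38, BRD9 (ENSG00000028310.18) lies on chromosome 5 from 850291 to 892801 on the minus strand, with 16 exons and a coding sequence for 597 amino acids in the canonical transcript. Its span overlaps that of ZDHHC11. SMARCD1 (ENSG00000066117.15) lies on chromosome 12 from 50085200 to 50100707 on the plus strand, with 13 exons and 515 amino acids, and overlaps no other annotated gene. The guide sequences were not used here, so the exon that each guide cuts is not given.

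Guides carry a running number, and each gene had 5 guides in the lower part of the list, called here the first set, and 5 in the upper part, the second set. The first set guides were 126 to 130 for BRD9 and 1151 to 1155 for SMARCD1, and the second set guides 1506 to 1510 and 1591 to 1595. Depth was 3394352 to 21854232 counts per library, and day 0 replicate 1 was the deepest. Over the 20 guides the paired libraries of a group differed by a median of 0.45 in log2 abundance at day 0, 0.34 at day 14 and 0.90 in tumours, so the tumours were the noisiest group. The labels call the screens duplicates and the sources differ on which transduction gave the tumours, so p-values measure only the spread between these libraries, which may be technical.

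The second set guides of BRD9 were much rarer at day 14 than at day 0 in both libraries, whereas its first set guides were not. Abundance is given here as CPM, the count of a guide relative to the total of its library after TMM scaling, and changes as the difference of log2(CPM + 1) from the day 0 mean, which understates the change of rare guides. The 5 second set guides had changes of -4.55 to -2.35, with a median of -3.45 over the guide means (-3.00 in replicate 1 and -3.03 in replicate 2 alone). The 5 first set guides had changes of -0.54 to 0.75, with a median of 0.36. All 183 non-targeting guides, which match no gene, had larger values than each second set BRD9 guide in both day 14 libraries.

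Guide 1508 had the lowest mean change of the BRD9 guides in culture. It was at 279.5 and 291.7 CPM in the day 0 libraries, at 6.27 and 19.5 CPM at day 14, and at 95.9 and 19.2 CPM in the tumours. Guide 1506 was at 113.5 and 145.4 CPM at day 0, at 7.84 and 14.9 CPM at day 14 and at 0.832 and 0.609 CPM in the tumours. As a change from its own day 0 level, guide 1508 was lower than guide 1506 at day 14 (-4.55 against -3.45) and higher in tumours (-2.70 against -6.24), while their day 14 CPM values overlapped.

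Guide 1510 was at 130.8 and 73.9 CPM at day 0, at 15.2 and 12.9 CPM at day 14 and at 1.66 and 1.52 CPM in the tumours. Guide 1509, the rarest of the BRD9 guides at day 0 with 33.7 and 43.8 CPM, was at 3.92 and 0 CPM at day 14 and at 1.11 and 2.74 CPM in the tumours. Guide 1507 was at 172.1 and 99.8 CPM at day 0, at 28.7 and 21.7 CPM at day 14 and at 49.3 and 10.2 CPM in the tumours. For all 5 guides, neither the day 14 nor the tumour libraries overlapped the day 0 libraries.

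The lowest of these values rest on few reads. Guide 1506 had 3 and 4 counts in the tumours, which is 0.673 CPM before TMM scaling (exact 95% binomial interval 0.139 to 1.97) and 0.469 CPM (0.128 to 1.20). Guide 1509 had 0 of 4052307 counts in day 14 replicate 2, which allows a level of up to 0.740 CPM before TMM scaling. Such intervals cover counting error only, since PCR reads are not independent molecules.

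The first set guides of BRD9 stayed at or above their day 0 level in most libraries. The median of all first set guides was 0.41 at day 14 and 0.44 in tumours, so such values were common. That of the non-targeting guides was 0.52 and 0.49. Guide 126 was at 184.9 and 128.5 CPM at day 0, at 219.9 and 249.5 CPM at day 14 and at 644.0 and 200.2 CPM in the tumours. Guide 129, the most abundant BRD9 guide in day 0 replicate 1, was at 525.6 and 337.2 CPM at day 0, at 320.2 and 261.9 CPM at day 14 and at 478.5 and 937.4 CPM in the tumours. Guide 129 was the only first set BRD9 guide with both day 14 libraries below both day 0 libraries.

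The other 3 first set guides, 127, 128 and 130, had mean changes of 0.75, 0.36 and -0.33 at day 14 and of 0.74, 1.24 and 0.76 in the tumours. Guide 130 split the day 14 libraries, with a change of 0.78 in replicate 1 and -1.44 in replicate 2. In the tumours no first set guide of BRD9 lay below day 0 in both libraries. Guides 129 and 130 were however at -0.14 and -0.03 there in the edgeR fit when libraries were scaled to the non-targeting guides. At day 14 that scaling put guides 128, 129 and 130 at -0.13, -1.09 and -0.47, and guides 126 and 127 at 0.06 and 0.21.

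In tumours the second set guides of BRD9 had changes of -6.24 to -2.48, with a median of -3.81, which was -4.23 in replicate 1 and -3.83 in replicate 2. The first set had a median of 0.76. Guides 1507 and 1508 differed between the tumours, with changes of -1.39 and -3.56 for guide 1507 and of -1.56 and -3.83 for guide 1508. Guides 1506 and 1510 had 3 to 10 counts in the tumours, too few to measure how far they differed between them.

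All 5 second set BRD9 guides lay below day 0 in every day 14 and tumour library, against 31.5% of all guides kept at day 14 and 30.6% in tumours. Of second set guides against any gene, 52.3% and 46.6% did so, and of first set guides 8.04% and 13.3%. A lower level was thus common in the second set, and the next comparison sets BRD9 against other genes on that scale.

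The gap between the sets was tested for each gene with limma, as the mean log2(CPM + 1) of the second set minus that of the first, over the 299 genes with guides in both. For BRD9 this gap was -0.96 and -1.08 at day 0, -4.90 and -4.37 at day 14, and -5.66 and -6.43 in the tumours. The day 14 and tumour libraries all lay below the day 0 libraries. The gap changed by -3.61 ± 0.44 (SE; limma adjusted p = 0.00119) at day 14 and by -5.02 ± 0.44 (limma adjusted p = 0.000522) in tumours. At day 14 23.1% of genes were called lower by this test and in tumours 47.5%, with median changes over genes of -0.9996 and -1.25. The call for BRD9 is therefore shared with many genes, while its size ranked 16 of 299 at day 14 and 3 of 299 in tumours. The further change from day 14 to tumours was -1.41 (limma adjusted p = 0.138), which did not pass the threshold. The genes and the split were chosen with earlier results of these data known, which these p-values do not take into account.

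SMARCD1 had low guides in both sets, and its gap did not change past the threshold. Its gap was -0.26 and 0.30 at day 0, -0.96 and 0.06 at day 14, and -0.35 and -1.33 in the tumours. The day 14 libraries overlapped the day 0 libraries, and both tumours lay below them. It changed by -0.47 ± 0.53 (SE; limma adjusted p = 0.470) at day 14 and by -0.86 ± 0.53 (limma adjusted p = 0.202) in tumours. Without in vivo replicate 1 the change in tumours was -1.36 (limma adjusted p = 0.0375), past the threshold. Whether the gap changed more for BRD9 than for SMARCD1 was not tested.

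The second set guides of SMARCD1 had changes of -2.79 to -0.65 at day 14, with a median of -1.75 (-1.74 and -1.75 in the 2 libraries). Guide 1595 was the lowest, at 275.5 and 183.9 CPM at day 0, at 39.2 and 25.7 CPM at day 14 and at 74.3 and 107.7 CPM in the tumours. Guide 1594 was the highest of the set, at 245.3 and 288.8 CPM at day 0, at 166.4 and 172.5 CPM at day 14 and at 256.1 and 553.1 CPM in the tumours. All 5 guides lay below day 0 in both day 14 libraries, as did 52.3% of all second set guides, and guide 1594 overlapped day 0 in the tumours.

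The tumours differed most from each other for 2 of these guides. Guide 1591 was at 63.7 and 168.4 CPM at day 0, at 30.3 and 29.9 CPM at day 14 and at 47.1 and 3.20 CPM in the tumours. Guide 1592 was at 166.3 and 155.6 CPM at day 0, at 41.5 and 47.0 CPM at day 14 and at 64.9 and 1.37 CPM in the tumours. Both were thus lower in in vivo replicate 2, where guide 1592 had 9 counts, than in in vivo replicate 1, where it had 234.

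Guide 1593, the remaining guide of the set, was at 238.8 and 197.6 CPM at day 0, at 90.6 and 92.9 CPM at day 14 and at 76.0 and 183.0 CPM in the tumours. The tumour median of the 5 guides was -1.32, which was -1.30 in replicate 1 and -1.06 in replicate 2. The range over the 5 guides, from -3.70 to 0.50, was wider than at day 14.

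Of the first set guides of SMARCD1, 3 lay below day 0 in both day 14 libraries and 2 above. Of the 1492 first set guides kept, 8.04% lay below and 699 above. Guide 1151 was at 145.6 and 124.6 CPM at day 0, at 30.3 and 6.87 CPM at day 14 and at 214.0 and 170.7 CPM in the tumours. Guide 1155 was at 190.8 and 73.1 CPM at day 0, at 43.6 and 6.21 CPM at day 14 and at 20.0 and 36.5 CPM in the tumours. Both were low in culture, and 1155 was low in the tumours too while 1151 was not.

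Guide 1153 had the reverse pattern to 1151. It was at 277.3 and 244.2 CPM at day 0, at 373.2 and 357.7 CPM at day 14 and at 84.0 and 47.6 CPM in the tumours. Guide 1154 had mean changes of -0.84 at day 14 and -0.78 in tumours, and guide 1152 of 0.30 and 0.43. The first set of SMARCD1 therefore held guides that were low in culture, in tumours, in both and in neither.

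Single guides were tested by the quasi-likelihood test of edgeR, and p-values were adjusted by Benjamini-Hochberg over all 3607 guides. At day 14 none of the 20 guides was called lower, and 0% of all guides were. Of the 20, 5 had an unadjusted p under 0.05, all lower (BRD9 guides 1506, 1508 and 1510, SMARCD1 guides 1151 and 1595), against 7.18% of all guides lower at that level. DESeq2 called 4 of the 20 lower, beside 3.47% of all guides, and limma on the normalized values of the authors 2, beside 1.33%.

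In tumours against day 0, 1 of the 20 guides was called lower by edgeR, beside 1.14% of all guides. This was BRD9 guide 1506, at -7.48 ± 1.31 on the log2 scale (SE; edgeR adjusted p = 0.0426). The 7 alternative fits that lost this call had 0% of all guides called lower in tumours. The call was lost with only the 2 groups compared (edgeR adjusted p = 0.109), with the replicate number as a block (0.0921) and with the block by transduction (0.188). It was also lost without day 0 replicate 1 (adjusted p = 0.460), day 0 replicate 2 (0.302), day 14 replicate 1 (0.120) or day 14 replicate 2 (0.122). Guide 1510 was next, at -6.00 ± 1.29 (edgeR adjusted p = 0.0576), and the highest first set guide, 126, was at 1.43 ± 0.62 (edgeR adjusted p = 0.196).

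In tumours against day 14, none of the 20 guides was called lower by edgeR, and 0% of all guides were. At an unadjusted p under 0.05, 3 of the 20 were lower and 3 higher, beside 5.54% and 8.54% of all guides, and DESeq2 called 2 lower, beside 2.11%. SMARCD1 guide 1153 had the smallest adjusted p, at -2.48 ± 0.52 (edgeR adjusted p = 0.161). SMARCD1 guide 1151 was at 3.37 ± 0.89 (edgeR adjusted p = 0.220) and BRD9 guide 1506 at -3.97 ± 1.15 (edgeR adjusted p = 0.246).

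The counts of the 10 guides summed per gene gave another view of BRD9, because the first set holds most of its reads. The BRD9 sum was 2078 and 1891 CPM at day 0, 1784 and 1358 CPM at day 14, and 2478 and 2823 CPM in the tumours. The second set made up 35.1% and 34.6% of the BRD9 counts at day 0, 3.47% and 5.08% at day 14, and 6.01% and 1.21% in the tumours (exact 95% binomial intervals 34.7% to 35.5%, 33.7% to 35.6%, 3.05% to 3.93%, 4.54% to 5.66%, 5.52% to 6.52% and 1.06% to 1.38%). These intervals cover counting error only and not the spread between libraries, over which the share was not tested. It was lower in each later library than in both day 0 libraries.

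The BRD9 sum changed by -0.34 ± 0.21 on the log2 scale at day 14 (SE; edgeR adjusted p = 0.764), where 0.862% of genes were called lower. In tumours it was at 0.42 ± 0.22 (edgeR adjusted p = 0.175), against a median of 0.40 over all 348 genes, with 2.87% of genes called lower and 19.8% higher. The BRD9 sum in tumours was at -0.44 when scaled to the non-targeting guides and -0.09 on the values normalized by the authors. From the second set guides alone the sums were -3.40 at day 14 (edgeR adjusted p = 0.0477) and -2.92 in tumours (edgeR adjusted p = 0.0466), both past the threshold and the latter of opposite sign. At day 14 the sums of SMARCD1, PCGF3, RING1, PRPF19 and RPL13 passed in that fit too, and the share of all genes called is not given here. The median of all second set guides was -0.59 at day 14 and -0.77 in tumours.

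The SMARCD1 sum was 2089 and 1856 CPM at day 0, 1234 and 1093 CPM at day 14, and 1290 and 1481 CPM in the tumours. All later libraries were below the day 0 libraries, as they were for the PRPF19 sum, and the share of all genes is not given here. The median change over all gene sums was -0.02 at day 14 and 0.40 in tumours. The SMARCD1 sum changed by -0.76 ± 0.22 at day 14 (SE, edgeR adjusted p = 0.236), ranking 17 of 348 genes. In tumours it changed by -0.51 ± 0.22 (edgeR adjusted p = 0.120), ranking 24. The second set made up 47.4% and 53.6% of its counts at day 0, 29.8% and 33.7% at day 14, and 40.2% and 57.3% in the tumours.

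Neither sum passed in that fit, and both passed in some others. The BRD9 sum was at -0.85 at day 14 when scaled to the non-targeting guides (edgeR adjusted p = 0.0479), and by DESeq2 at 0.51 in tumours (adjusted p = 0.0214) and at 0.81 in tumours against day 14 (adjusted p = 0.00031). With the non-targeting scaling the median over all gene sums was -0.53 at day 14. With median-ratio factors, which DESeq2 uses too, that median was 0.49 in tumours and 0.45 against day 14 in edgeR. The shares of genes called in these fits are not given here. The SMARCD1 sum at day 14 was at -0.73 by DESeq2 (adjusted p = 0.00358), at -0.76 in edgeR with only the 2 groups compared (adjusted p = 0.00310), at -1.28 when scaled to the non-targeting guides (adjusted p = 0.0191) and at -1.26 by limma on the values normalized by the authors (adjusted p = 0.0182). In tumours against day 14, 0% of genes were called lower by edgeR and 24 of 348 higher. There the BRD9 sum was at 0.75 ± 0.22 (edgeR adjusted p = 0.0818) and the SMARCD1 sum at 0.25 ± 0.22 (edgeR adjusted p = 0.408), the latter at -0.09 when scaled to the non-targeting guides. The median over all genes was 0.39 in that comparison.

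By the median of second set guides, BRD9 ranked 19 of 348 genes at day 14 and 20 in tumours, where rank 1 is the lowest. Its rank was 18 to 21 in the 4 later libraries taken singly. SMARCD1 ranked 43 at day 14 and 115 in tumours, with 39 and 47 in the day 14 libraries and 117 and 134 in the tumours. The ranks share the day 0 libraries and were not tested against each other.

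The genes whose second set medians lay nearest to those of BRD9, by Euclidean distance over the 4 later libraries, were SAE1 (0.691), AAMP (0.952) and CDT1 (1.29). SAE1, a subunit of the enzyme that activates SUMO, had medians of -3.56 and -2.80 at day 14 and -3.88 and -3.85 in the tumours. Nearest to SMARCD1 were KLF16 (0.534), MTRNR2L3 (0.587) and NME3 (0.638).

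Of 31 BAF genes listed, 3 were in the library, BRD9, SMARCD1 and SS18, and none of their sums was called in either direction in any comparison by edgeR. SS18 had second set medians of -2.25 at day 14 and -5.38 in tumours, and its gap between the sets changed by -2.37 (limma adjusted p = 0.0247) and -4.45 (limma adjusted p = 0.00102), ranking 33 and 9 of 299. BRD9 and SS18 thus passed this test in both arms and SMARCD1 in neither. The test only compares the sets, and 3 of the 5 first set guides of SMARCD1 lay below day 0 in each arm. Of all genes tested, 23.1% were called lower by it at day 14 and 47.5% in tumours. The SS18 median was lower than that of BRD9 in tumours and higher at day 14, differences that were not tested.

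Of 29 Polycomb and SSX genes listed, 5 were in the library, PCGF3, RING1, RNF2, SSX1 and SSX3, and 1 sum was called, RNF2, higher in tumours at 1.20 (edgeR adjusted p = 0.0323), where 19.8% of all genes were called higher. That call was lost without any single day 0 or day 14 library (adjusted p = 0.0738 to 0.192) and when scaled to the non-targeting guides, at 0.34 (edgeR adjusted p = 0.370). It was also lost with the replicate block by label (adjusted p = 0.0611) or by transduction (0.116), with only the 2 groups compared (0.0761), on the values normalized by the authors (0.62, 0.205) and with the median of guides (0.74, 0.0742). PCGF3, a subunit of a variant Polycomb complex, had second set medians of -4.14 at day 14 and -2.75 in tumours, and its gap changed by -4.26 (limma adjusted p = 0.00118) and -3.52 (limma adjusted p = 0.00132). RING1, an E3 ligase of Polycomb complexes, had a gap that changed by -1.60 (limma adjusted p = 0.0302) and -1.36 (limma adjusted p = 0.0278), ranking 68 and 139 of 299 genes, the latter close to the median over genes of -1.25. All guides of SSX1 and SSX3 are in the second set, with medians of -0.54 and -0.49 at day 14 and -0.77 and -0.68 in tumours.

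As a scale for these values, the second set guides of PRPF19, a splicing factor, had medians of -5.02 at day 14 and -4.98 in tumours, and those of RPL13, a ribosomal protein, of -5.13 and -5.40. Of these 2 genes the sum of PRPF19 was called lower in tumours, at -0.94 (edgeR adjusted p = 0.0383), a call lost without any single day 0 or day 14 library (adjusted p = 0.0910 to 0.220), with the replicate block by label (0.0584) or by transduction (0.0597) and with only the 2 groups compared (0.0858). The median of all second set guides was -0.59 at day 14 and -0.77 in tumours. BRD9 lay between the comparators and that median in both arms, and SMARCD1 nearer to the median of the set. Non-targeting guides had medians of 0.52 and 0.49.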

How the data were processed

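Per the labels, guides were amplified by PCR from genomic DNA and sequenced, and the submitters' processing notes name MAGeCK and hg38 without versions. The main table deposited by the authors gives raw read counts for each guide. A second deposited table holds normalized signal values, each column being the counts times 1 factor, and the sources used here do not state how the factors were set. Every column was matched to its sample by name.

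The members and lists, and the split by guide number, were chosen with earlier results of these data known. All guides of BRD9 and SMARCD1 were described, and other genes named were library members of the 2 lists, PRPF19, RPL13 and the 3 nearest genes of each member. A day 0 mean of 30 counts or more was required of a guide. Counts were fitted with edgeR 4.0.16 in R 4.3.3 (TMM, glmQLFit and glmQLFTest, 1 fit of all 6 libraries, threshold 0.05), for guides and for sums per gene, with the SE taken as the change over the root of F. The gap between sets was fitted with limma 3.58.1 on log2(CPM + 1). The procedure was tested on simulated data. Annotation was read with Python 3.11.15.

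Replicate numbers are shared between groups. Deviations of same-numbered libraries correlated at 0.0694 between day 0 and day 14, at 0.00198 between day 0 and tumours and at 0.00252 between day 14 and tumours. By the protocol both arms and the day 0 aliquot came from the same transduced cells, which pairs day 0 with day 14, and the sources differ on the tumours, so the block was fitted by label and by transduction, both as alternatives. The others were median-ratio size factors, scaling to non-targeting guides, other filters, DESeq2 1.42.0, limma on the authors' normalized signal, a fit of the groups compared, each library left out, other ways to combine guides, another pseudocount and a threshold of 0.1.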

Additional observations from a re-analysis of the deposited data

Results flagged for a closer look

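For 3 guides the change from day 0 had 1 sign in both day 14 libraries and the opposite sign in both tumours. The share of all kept guides that did so is not given here, so 3 cannot be called many or few. BRD9 guide 129 was at -0.54 at day 14 and 0.67 in tumours, a difference of 1.21. The edgeR estimate for tumours against day 14 was 1.28 (adjusted p = 0.333). The edgeR value of this guide in tumours was 0.71, and -0.14 when scaled to the non-targeting guides. SMARCD1 guide 1151 was at -3.11 at day 14 and 0.50 in tumours, a difference of 3.61 (3.37 in edgeR, adjusted p = 0.220). Its edgeR value in tumours was 0.51, against -0.35 with that scaling and -0.14 with the block by transduction. By limma on the values normalized by the authors it was -0.01. SMARCD1 guide 1153 was at 0.49 at day 14 and -2.02 in tumours, a difference of -2.51 (-2.48 in edgeR, adjusted p = 0.161). Its edgeR value at day 14 was 0.49, against -0.03 with that scaling. By limma on the values normalized by the authors it was -0.01. None of these differences between the arms passed the threshold.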

How the results depend on the processing

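The change of the gap between sets kept its direction and its call for BRD9 in both arms in every alternative run. Scaling moved the median of all guides from 0.01 to -0.50 at day 14 and from 0.02 to -0.83 in tumours with the non-targeting guides. With that scaling the BRD9 sum was at -0.85 at day 14 (adjusted p = 0.0479), the SMARCD1 sum at -1.28 (0.0191) at day 14 and -1.37 (0.00869) in tumours, 3 guides were called lower in tumours (8.95% of all guides), and the second set medians were -3.96 and -4.49 for BRD9 and -2.26 and -2.17 for SMARCD1 at day 14 and in tumours. With median-ratio size factors the day 14 medians were -3.42 and -1.72. Over all gene sums the median with these factors was 0.49 in tumours and 0.45 in tumours against day 14. On the values normalized by the authors 2 guides were called lower at day 14 (1.33% of all) and 3 in tumours (7.21%), the SMARCD1 sums were -1.26 (0.0182) and -1.02 (0.0393), and the medians were -4.05 and -4.82 for BRD9 and -2.28 and -1.84 for SMARCD1. DESeq2 called 4 guides lower at day 14 (3.47% of all), 3 in tumours (10.3%) and 2 in tumours against day 14 (2.11%), with the SMARCD1 sums at -0.73 (0.00358) and -0.42 (0.0498) and the BRD9 sum at 0.51 (0.0214) in tumours and 0.81 (0.00031) against day 14. With only the groups compared 4 guides were called at day 14 (8.12% of all) and 0 in tumours (0%), and the SMARCD1 sum was -0.76 (0.00310) at day 14. With an adjusted p under 0.1, 3 were called in tumours (5.68% of all). The median of guides gave -1.63 (0.0177) for SMARCD1 at day 14. From second set guides alone BRD9 was at -3.40 (0.0477) at day 14 and reversed to -2.92 (0.0466) in tumours, and SMARCD1 was at -1.43 (0.0380) at day 14. With a pseudocount of 5 the medians were -2.70 and -2.66 for BRD9 and -1.64 for SMARCD1 at day 14. Medians were called moved past the SD over the treated libraries alone, a narrow limit.

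With the replicate block by label 0 guides of the 2 genes, and 0% of all guides, were called lower in tumours, and likewise with the block by transduction, where the tumour medians were -4.30 for BRD9 and -1.61 for SMARCD1. The block changed no other call of the 2 genes, and it ended the calls of the RNF2 and PRPF19 sums in tumours.

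Leaving out each library in turn gave 0 to 4 guides called lower at day 14, 0 to 7 in tumours and 0 to 3 in tumours against day 14. In tumours the count was 7 without in vivo replicate 1 (16.5% of all guides), 3 without in vivo replicate 2 (17.3%) and 0 without any single day 0 or day 14 library (0%). At day 14 it was 4 without in vivo replicate 1 (6.99%) or 2 (7.4%), and in tumours against day 14 it was 3 (9.48%) and 1 (8.73%). With all libraries the median over all gene sums was 0.40 in tumours and 0.39 in tumours against day 14. Without in vivo replicate 1 the BRD9 sum was at 0.51 in tumours and 0.85 against day 14. Without in vivo replicate 2 it was at 0.66 against day 14. The medians over genes in these fits are not given here. The BRD9 sums ranged from -0.51 to -0.11 at day 14, 0.32 to 0.59 in tumours and 0.63 to 1.02 against day 14. The SMARCD1 sums ranged from -0.84 to -0.63, -0.61 to -0.32 and 0.15 to 0.40, past the threshold at day 14 without either tumour (-0.76) and in tumours without in vivo replicate 2 (-0.61, 0.04999). The change of the gap ranged from -3.88 to -3.34 and from -5.42 to -4.66 for BRD9, and from -0.98 to 0.04 and from -1.36 to -0.37 for SMARCD1, at day 14 and in tumours. The medians ranged from -3.58 to -2.95 and from -4.26 to -3.61 for BRD9, and from -1.75 to -1.37 and from -1.61 to -0.93 for SMARCD1. Guides with under 10 counts in a tumour, such as 1506, had levels limited by depth there.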
